A study of Rattus norvegicus with 4 samples.

Results

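The genes described are 75 carriers of amino acids, glucose and related sugars, and monocarboxylates such as lactate, out of 23608 genes in the deposited count table. They were taken by name alone: every gene of the solute carrier families SLC1, SLC2, SLC6, SLC7, SLC16 and SLC38 in the table except Slc2a1 and Slc7a11. They were measured by mRNA sequencing in primary wild type rat vascular cells, isolated from subcutaneous soft connective tissue and cultured as microvessels, in 4 libraries: a stiff extracellular matrix with A83-01, the stiff matrix without it, a soft matrix with A83-01, and the soft matrix without it. A83-01 blocks the kinase activity of type I TGF-beta receptors, and the study addressed how stiffness and TGF-beta blockade act on microvessels and on pericytes becoming myofibroblasts. The labels give no stiffness value, dose, duration, strain or age, and there was 1 library per group. The names of both stiff libraries differ in form from those of both soft libraries, so that an effect of stiffness and one of preparing those pairs apart cannot be told apart.

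Solute carriers are membrane proteins that move small molecules across membranes. SLC16 proteins carry lactate, pyruvate and ketone bodies together with protons, and some members carry other substrates such as creatine; MCT1 and MCT4 need the glycoprotein basigin to reach the plasma membrane. Most SLC2 proteins, the GLUTs, let sugars flow down their gradient. SLC7 proteins carry cationic amino acids or, joined to a heavy chain of the SLC3 family, exchange one amino acid for another. SLC1 proteins carry glutamate and aspartate or exchange small neutral amino acids, SLC38 proteins bring in neutral amino acids with sodium, and SLC6 proteins carry neurotransmitters, glycine, taurine, betaine and creatine. Several amino acid carriers are known targets of ATF4, the transcription factor of the amino acid stress response, and MCT4 is a known target of hypoxia-inducible factor in human cells.

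Depth ranged from 32271844 to 33416200 counts per library. Levels of different genes are set side by side in the authors' FPKM, which is per transcript length. Differences of 1 gene between libraries are ratios of CPM, the counts scaled to library size with factors from the trimmed mean of M-values (TMM), and 1 count was worth little: a floor of 3 counts lay between 0.0842 and 0.103 CPM. TMM factors were 1.07 for stiff with A83-01, 0.876 for stiff, 1.04 for soft with A83-01 and 1.03 for soft. The range after each fold is its 95% counting interval, which covers counting error only, and with 1 library a group no ratio could be checked by a replicate. Endothelial markers summed to between 1803 and 2933 CPM over the 4 libraries and pericyte and mural markers to between 2067 and 4464 CPM, so that the labelled vascular cells were represented in each. In bulk RNA, fewer cells of a type and less RNA per cell cannot be told apart.

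At least 1 CPM in at least 1 library was reached by 40 of the 75 transporters: 8 of 14 in SLC16, 9 of 11 in SLC2, 6 of 14 in SLC7, 5 of 7 in SLC1, 7 of 11 in SLC38 and 5 of 18 in SLC6. Of the other 35, 17 had no count in any library, which bounds each below the floor given above, and 18 had between 2 and 28 counts in their highest library. The silent genes included the transporters of noradrenaline (Slc6a2) and dopamine (Slc6a3), the astrocyte glutamate carrier Slc1a2 and the liver glucose carrier Slc2a2. All 75 together took 0.149% of counts in stiff with A83-01, 0.180% in stiff, 0.205% in soft with A83-01 and 0.202% in soft.

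The most abundant transporter in both soft libraries was the lactate exporter Slc16a3, with 123 FPKM with A83-01 and 117 FPKM without. In both stiff libraries it was the sodium-coupled glutamine carrier Slc38a2, with 79.7 FPKM with A83-01 and 70.5 FPKM without. Slc38a2 itself stood at 87.8 FPKM in soft with A83-01 and 72.6 FPKM in soft, a narrow range. Also abundant were Slc1a5, the glutamine exchanger ASCT2, at 36.7 to 55.0 FPKM, Slc38a10 at 40.3 to 50.0 FPKM, and Slc7a5, the large neutral amino acid exchanger LAT1, at 12.2 to 50.5 FPKM. The levels of Slc7a5 were the most spread of these 3. Among the sugar carriers counted here, the most abundant was Slc2a3, the high-affinity glucose carrier GLUT3, at 8.09 to 12.2 FPKM.

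**Figure D1:**
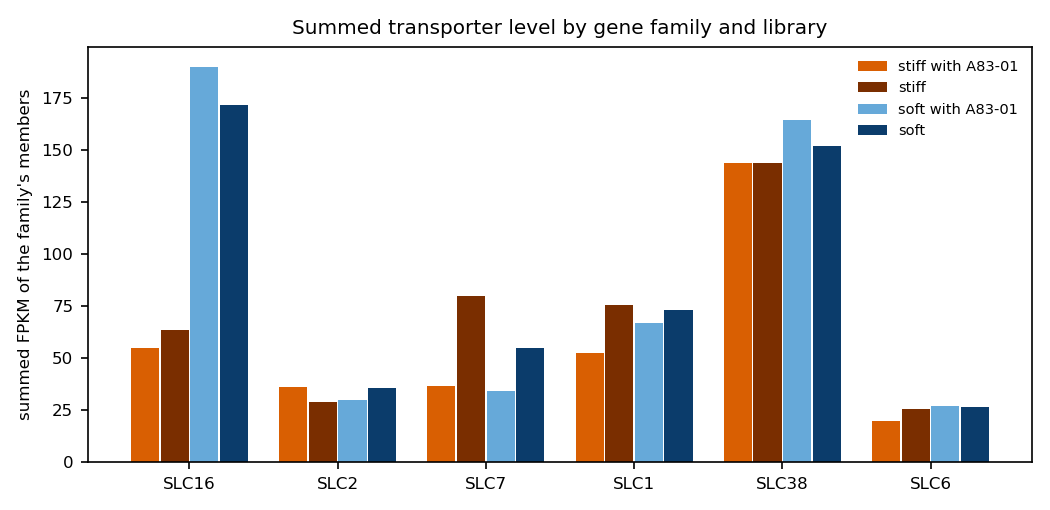
Summed FPKM of all members of each family (vertical axis), without TMM scaling, in the 4 libraries, 1 bar per library. The SLC16 sum was 54.7 and 63.8 in the stiff libraries against 190 and 172 in the soft ones, and the SLC7 sum was highest in stiff without A83-01, at 80.1.

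**Figure D2:**
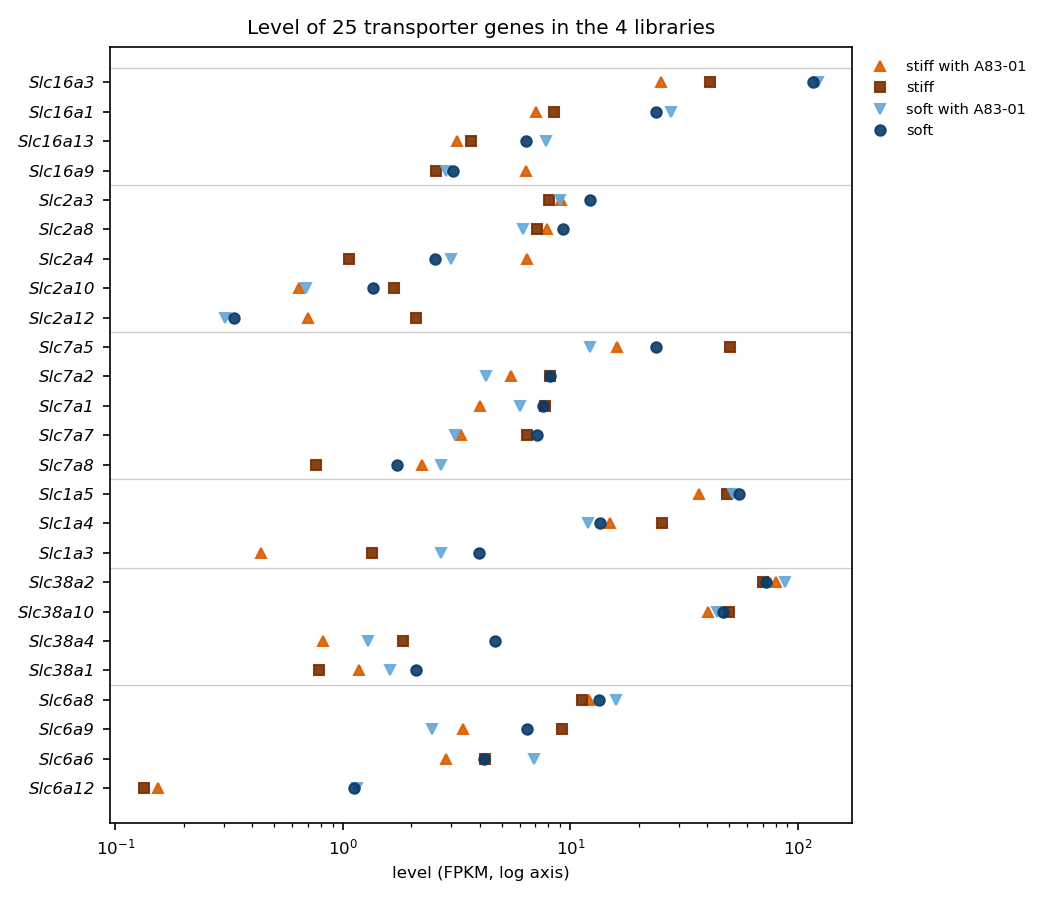
Level in FPKM (log axis) of 25 transporters chosen by call, difference or level, 1 symbol per library, grouped by family and ordered by mean level. The top 3 genes, Slc16a3, Slc16a1 and Slc16a13, separate stiff from soft libraries, while Slc38a2 and Slc38a10 have their 4 symbols close together.

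Summed over each family, FPKM differed most between matrices in SLC16. The sum was 54.7 in stiff and 190 in soft with A83-01 present, and 63.8 in stiff and 172 in soft without it. Much of it was 1 gene: Slc16a3 alone held 25.1 of the 54.7, 123 of the 190, 41.2 of the 63.8 and 117 of the 172. The SLC7 sum was lower with the inhibitor on both matrices. It was 36.8 with and 80.1 without A83-01 on stiff matrix, and 34.2 with and 55.0 without it on soft matrix. Without A83-01 it was also higher on stiff than on soft matrix, and Slc7a5 alone held 50.5 of the 80.1. SLC38 sums lay between 144 and 164 and SLC6 sums between 19.8 and 27.3. These FPKM sums are not TMM-scaled, and small differences between them depend on that. In TMM-scaled CPM the SLC38 sum was highest in stiff without A83-01, at 855. It was 703 in stiff with A83-01, 830 in soft with A83-01 and 757 in soft without it.

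Stiffness was compared first, over the 40 transporters that reached the minimum. Several monocarboxylate carriers were lower on stiff than on soft matrix, whether or not the inhibitor was present, and the lactate carriers Slc16a3 and Slc16a1 passed the test. Without A83-01, 4 transporters were at least 2-fold higher in stiff than in soft (10.0% of 40, against 5.33% of all 13634 genes tested) and 10 were at least 2-fold lower (25.0%, against 8.58% of all genes). With A83-01 in both libraries, 4 were higher (10.0%, against 6.88%) and 10 lower (25.0%, against 6.72%). Of the 10 that were lower without A83-01, 7 were also lower with it, among them Slc16a1, Slc16a3, Slc16a11, Slc6a12, Slc1a1 and Slc1a3. Slc6a12 (lower in both pairs), Slc2a5 (lower with A83-01) and Slc1a7 (higher in both pairs) reached the minimum only where they stood high. Their places in these counts thus rest on that minimum, which was set for all genes alike. The median log2 ratio of the 40 was −0.01 without and −0.23 with A83-01, beside 0.00 and 0.01 for all genes. With scaling by total counts, under which the median of all genes was −0.23 in stiff against soft without A83-01, 3 were higher and 12 lower in that pair. Of all 13653 genes kept under that scaling, 522 were higher and 1613 lower.

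Stiffness was then tested over all 4 libraries, 2 stiff against 2 soft, with the inhibitor as a second factor and 1 residual degree of freedom, which is the difference between both stiffness ratios. With p-values adjusted by Benjamini-Hochberg over all genes and a threshold of 0.05, the quasi-likelihood test of edgeR called 4 of the 40 transporters down (10.0%, against 3.29% of all genes) and 0 up (against 2.35%). At an unadjusted p of 0.05 it had 13 down and 6 up (against 13.2% and 12.1% of all genes). DESeq2 called 5 down and 2 up (against 5.41% and 4.21%), and limma-voom 5 down and 0 up (against 4.56% and 3.43%). Among the 4 were Slc16a3, Slc16a1 and Slc6a12, the last of which reached the minimum only in the soft libraries. With the inhibitor left out of the model, none of the 4 passed, with adjusted p between 0.0775 and 0.150.

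Slc16a3 encodes MCT4, which exports lactate from glycolytic cells. It stood at 60.4 CPM in stiff and 308 CPM in soft with A83-01, and at 122 CPM in stiff and 292 CPM in soft without it. Both stiff libraries were below both soft ones. It was 5.10-fold lower (4.87 to 5.35) with and 2.39-fold lower (2.30 to 2.49) without A83-01, and in edgeR's additive test its log2 level fell by 1.80 with an SE of 0.299 (adjusted p = 0.0425). With DESeq2's size factors in that additive test the adjusted p became 0.0621, so its call in edgeR's test rests on the scaling. DESeq2 (adjusted p = 4.07e-08) and limma-voom (adjusted p = 0.0238) also called it down. In RefSeq's GRCr8 annotation Slc16a3 overlaps Csnk1d, a kinase gene, and without strand information their reads may be shared.

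Slc16a1 encodes MCT1, which moves lactate and pyruvate in either direction and also needs basigin. Its level was 20.4 CPM in stiff and 83.2 CPM in soft with A83-01, and 30.1 CPM in stiff and 71.1 CPM in soft without it. The groups again did not overlap. It was 4.08-fold lower (3.76 to 4.43) with and 2.36-fold lower (2.18 to 2.55) without the inhibitor, and in edgeR's additive test it fell by 1.63 with an SE of 0.225 (adjusted p = 0.0295).

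Slc6a12, the betaine and GABA carrier known from osmotic regulation in the kidney, was low throughout and reached the minimum of 1 CPM only in the soft libraries, with 17 and 14 counts in stiff with and without A83-01 and 115 and 110 counts in soft with and without it. That is 7.20-fold lower (4.30 to 12.8) with and 6.82-fold lower (3.90 to 12.9) without the inhibitor, and in edgeR's additive test it fell by 2.80 with an SE of 0.386 (adjusted p = 0.0295, and 0.0165 with no minimum on any gene).

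Slc16a13, Slc16a11, Slc16a9 and Slc16a12 did not pass the additive test. Slc16a13 stood at 6.99 CPM in stiff and 18.0 CPM in soft with A83-01, 2.57-fold lower (2.22 to 2.99), and was 1.46-fold lower (1.26 to 1.70) without it. Slc16a11, its neighbour in the genome, was low, at 0.688 to 4.66 CPM, and 3.13-fold (2.28 to 4.36) and 3.34-fold (2.02 to 5.77) lower in stiff with and without A83-01. The annotated genes overlap, so that their counts may be shared. Slc16a9 went the other way with A83-01, at 8.08 CPM in stiff and 3.76 CPM in soft, 2.15-fold higher (1.74 to 2.67). Without A83-01 it stood at 3.99 CPM in stiff and 4.00 CPM in soft, and the interval of that ratio included 1. Slc16a12, a creatine carrier in human cells, had 18.3 CPM in stiff and 10.1 CPM in soft with A83-01, and 14.5 CPM in stiff and 12.0 CPM in soft without it. Of the 8 SLC16 genes tested, 4 were at least 2-fold lower without and 5 with A83-01, 0 and 1 were higher, and the median log2 ratios were −1.09 and −1.48. Over all genes, 8.58% were lower without and 6.72% with A83-01, and 5.33% and 6.88% were higher.

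Promoter sequences of both lactate carriers are printed because these genes fell together. Each is RefSeq's window on GRCr8, 250 bases before to 50 after the annotated start, of which 52 of the 75 transporters had one. Capitals mark matches, on either strand, to CACGTG (the E-box), NCGTG (the core of hypoxia response elements, which every E-box also holds), GGAATG (TEAD factors), TGATGNAA (the C/EBP-ATF element read by ATF4) or GTCTAGAC (SMAD factors).
Slc16a1 (GRCr8, chr2:194812410-194812709, plus strand): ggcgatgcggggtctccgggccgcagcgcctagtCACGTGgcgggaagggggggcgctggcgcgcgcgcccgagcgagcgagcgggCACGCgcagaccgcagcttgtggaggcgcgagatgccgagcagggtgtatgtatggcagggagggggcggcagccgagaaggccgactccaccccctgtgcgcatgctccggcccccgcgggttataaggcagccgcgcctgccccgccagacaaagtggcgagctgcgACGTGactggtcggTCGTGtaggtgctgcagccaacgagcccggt
Slc16a3 (GRCr8, chr10:106712078-106712377, plus strand): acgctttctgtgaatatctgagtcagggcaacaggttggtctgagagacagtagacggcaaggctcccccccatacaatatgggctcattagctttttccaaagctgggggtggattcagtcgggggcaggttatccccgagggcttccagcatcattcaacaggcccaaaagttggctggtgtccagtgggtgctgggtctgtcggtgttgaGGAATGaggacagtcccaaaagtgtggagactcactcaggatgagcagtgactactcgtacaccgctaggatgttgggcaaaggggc
The Slc16a1 window holds an E-box and further NCGTG cores, and the Slc16a3 window holds a single match, to GGAATG. Among all 33469 promoters of the table, NCGTG was present in 60.7%, CACGTG in 6.42% and GGAATG in 14.2%, against 38, 7 and 5 of the 52 transporter promoters. GTCTAGAC was in 0.197% of all promoters and in 0 of the 52. A match describes letters in a window and is no evidence of binding.

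**Figure D3:**
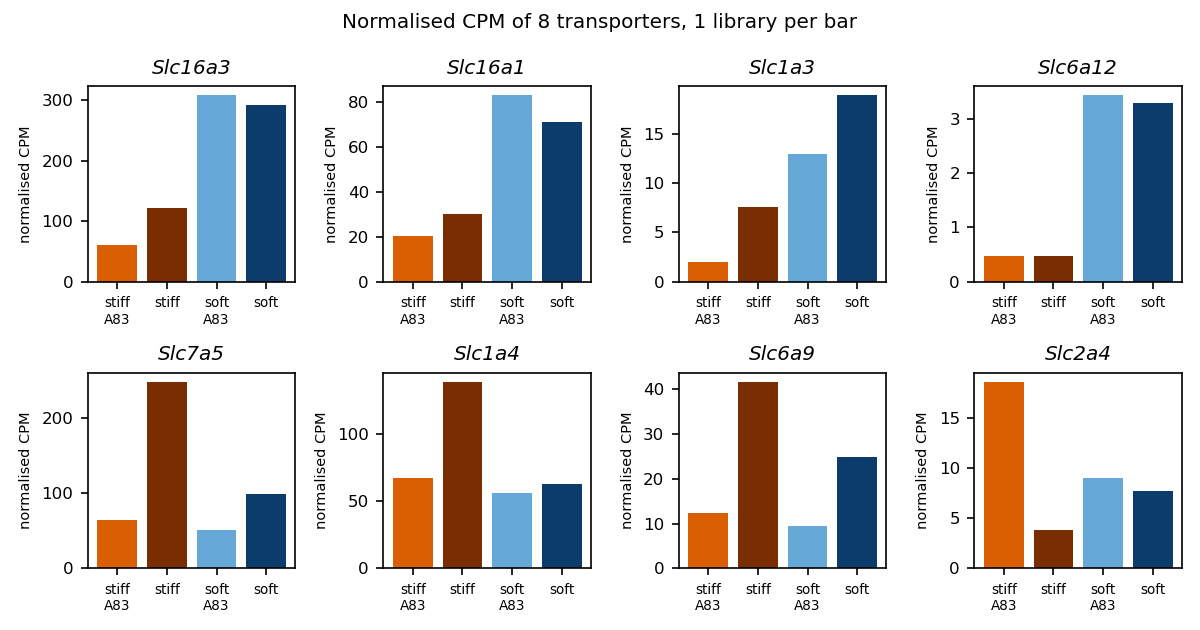
TMM-normalised CPM (vertical axes, each from 0) of 8 transporters, 1 bar per library, stiff with A83-01, stiff, soft with A83-01 and soft from left to right. Slc16a3, Slc16a1, Slc1a3 and Slc6a12 are low in both stiff libraries; Slc7a5, Slc1a4 and Slc6a9 are highest in stiff without A83-01, and Slc2a4 in stiff with it.

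The 3 glutamate carriers of SLC1 that reached the minimum differed between matrices in both directions, at up to 18.9 CPM. None passed edgeR's quasi-likelihood test. Slc1a3, the carrier GLAST, stood at 1.96 CPM in stiff and 12.9 CPM in soft with A83-01, and at 7.53 CPM in stiff and 18.9 CPM in soft without it. That was 6.57-fold (5.09 to 8.58) and 2.51-fold lower (2.15 to 2.94), with both stiff libraries below both soft ones. The additive log2 difference was −1.98 (SE 0.374) and the adjusted p was 0.0553 in edgeR's quasi-likelihood test, while DESeq2 (adjusted p = 0.000242) and limma-voom (adjusted p = 0.0428) called it down. Slc1a1, the carrier EAAC1, was at 0.585 to 2.45 CPM and 2.13-fold (1.45 to 3.18) and 3.12-fold (1.80 to 5.69) lower in stiff with and without A83-01. In GRCr8 it overlaps Spata6l, so that reads may be shared. Slc1a7, known as a glutamate carrier of the retina, was higher in stiff, with 45 and 29 counts in stiff with and without A83-01 and 7 and 9 counts in soft with and without it. It reached the minimum of 1 CPM only in stiff with A83-01, at 1.26 CPM. Its place among the transporters counted as higher in stiff thus rests on a minimum passed where it was high.

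Higher in stiff than in soft without A83-01 were Slc7a5, Slc1a4, Slc2a12 and Slc1a7. Slc2a12, the sugar carrier GLUT12, stood at 12.3 CPM in stiff and 1.67 CPM in soft without A83-01, 7.36-fold higher (5.54 to 9.94). With A83-01 it stood at 3.37 CPM in stiff and 1.52 CPM in soft, 2.21-fold higher (1.58 to 3.13). Its additive log2 difference was 2.04 (SE 0.487) with an adjusted p of 0.0872 in edgeR's quasi-likelihood test, and DESeq2 called it up (adjusted p = 0.00531). Slc7a5 had 249 CPM in stiff and 98.6 CPM in soft without A83-01, 2.52-fold higher (2.42 to 2.63). With A83-01 it had 64.2 CPM in stiff and 50.9 CPM in soft, 1.26-fold higher (1.18 to 1.34). The adjusted p was 0.147 in edgeR's quasi-likelihood test and 0.0389 in DESeq2. Slc1a4, the serine and alanine exchanger ASCT1, was 2.20-fold higher (2.09 to 2.32) without and 1.20-fold higher (1.13 to 1.27) with the inhibitor. Its adjusted p was 0.162 in edgeR's quasi-likelihood test.

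Both of the most abundant SLC38 carriers differed little between matrices. Slc38a2 was 1.15-fold lower (1.12 to 1.17) with and 1.15-fold higher (1.12 to 1.18) in stiff without A83-01, and Slc38a10 1.14-fold lower (1.10 to 1.18) and 1.26-fold higher (1.22 to 1.30). With total-count scaling the ratio of Slc38a2 without A83-01 lay below 1 as well. Slc38a4, a carrier of the same system A as Slc38a2, was less abundant, at 3.73 CPM in stiff and 5.94 CPM in soft with A83-01 and 10.2 CPM in stiff and 21.7 CPM in soft without it. Without the inhibitor it was 2.13-fold lower (1.85 to 2.44). Slc38a1 was 1.41-fold lower (1.09 to 1.85) with and 2.25-fold lower (1.70 to 3.02) without the inhibitor. Slc38a7 and the lysosomal arginine sensor Slc38a9 stood at 72.1 to 99.5 CPM and 9.44 to 13.9 CPM and did not reach 2-fold in any pair. The intracellular sugar carrier Slc2a8 had 19.1 CPM in stiff and 15.7 CPM in soft with A83-01, and 21.3 CPM in stiff and 23.4 CPM in soft without it. The SLC2 genes Slc2a3, Slc2a6, Slc2a8, Slc2a9 and Slc2a13 did not reach 2-fold in any pair either.

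**Figure D4:**
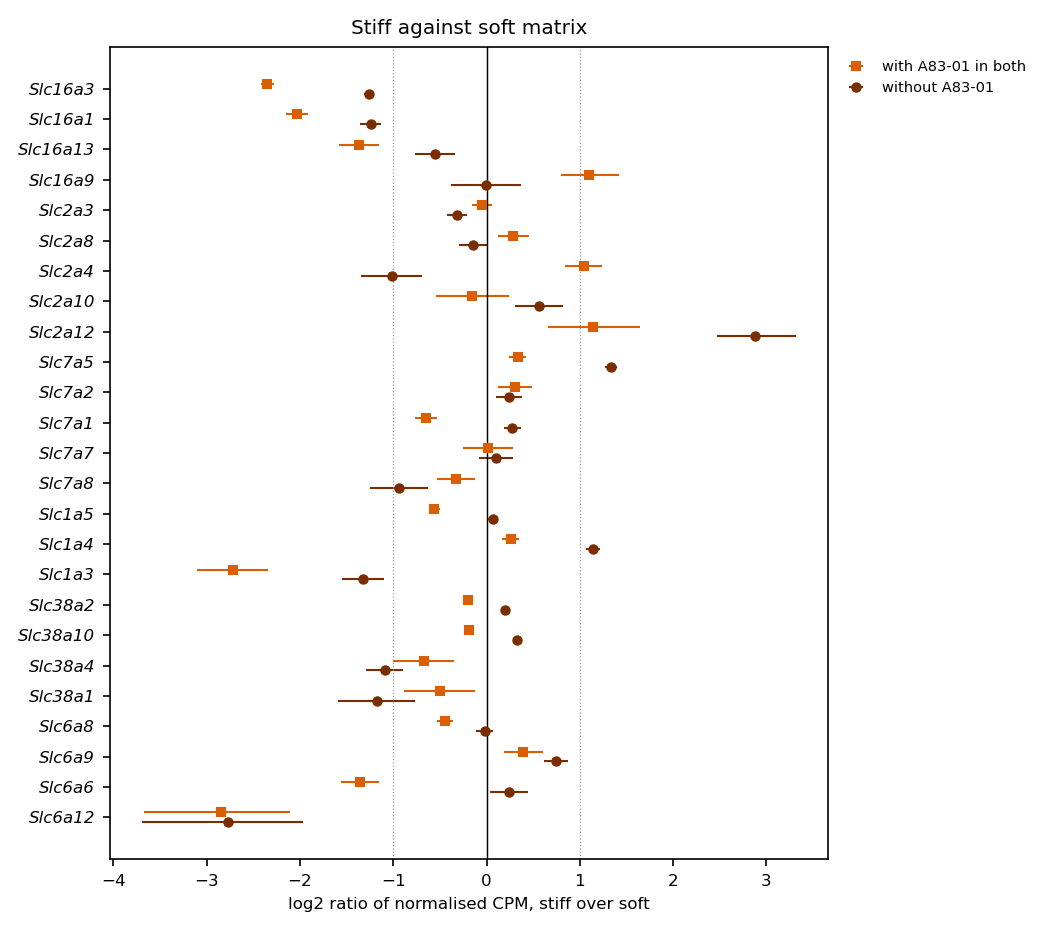
Log2 ratio of normalised CPM, stiff over soft, for the same 25 transporters, with A83-01 in both libraries (squares) and without it (circles). Bars are 95% counting intervals and dotted lines mark 2-fold; Slc16a3, Slc16a1, Slc1a3 and Slc6a12 lie left of −1 in both, and Slc2a4 lies on opposite sides of 0.

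The inhibitor was compared next. On stiff matrix several amino acid carriers were lower with A83-01, and on soft matrix fewer were. On stiff matrix 4 of the 40 transporters were at least 2-fold higher with A83-01 (10.0%, against 7.80% of all genes) and 10 at least 2-fold lower (25.0%, against 4.47%). On soft matrix 1 was higher (2.50%, against 2.18%) and 3 lower (7.50%, against 2.44%). With scaling by total counts, which gave a median log2 ratio over all genes on stiff matrix of 0.31 in place of 0.02, the split on stiff matrix was 6 higher and 6 lower. Of all 13653 genes kept under that scaling, 1667 were higher and 392 lower. The 1 transporter higher on soft matrix was the fructose carrier Slc2a5, which reached 1 CPM only in soft with A83-01, at 1.76 CPM with and 0.478 CPM without A83-01, 3.68-fold higher (2.09 to 6.86). The median log2 ratio of the 40 was −0.18 on stiff and −0.07 on soft matrix, beside 0.02 and 0.00 for all genes. These comparisons share libraries with the stiffness comparisons.

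Tested over all 4 libraries, 2 with against 2 without A83-01 and stiffness as the second factor, the quasi-likelihood test of edgeR, adjusted over all genes, called 0 of the 40 transporters up and 0 down, against 0 and 6 of all genes (0% and 0.044%). At an unadjusted p of 0.05 it had 5 up and 8 down (against 7.25% and 6.04% of all genes). DESeq2 called 0 up and 5 down (against 1.61% and 1.79%), namely Slc7a5, Slc7a7, Slc7a2, Slc6a9 and Slc38a4, while limma-voom called 0 in either direction (against 0% up and 0.022% down). The values of these 5 follow as descriptions.

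Slc7a5 pairs with the heavy chain Slc3a2 and brings in leucine and other large neutral amino acids. It had 64.2 CPM with and 249 CPM without A83-01 on stiff matrix, 3.87-fold lower (3.69 to 4.06). On soft matrix it had 50.9 CPM with and 98.6 CPM without A83-01, 1.94-fold lower (1.83 to 2.05). Both libraries with A83-01 were below both without it. The additive log2 difference was −1.45 (SE 0.270), with an adjusted p of 0.175 in edgeR's quasi-likelihood test and 4.56e-05 in DESeq2. The heavy chain Slc3a2 had 146 CPM with and 256 CPM without A83-01 on stiff matrix, and 180 CPM with and 211 CPM without it on soft matrix.

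Slc6a9, the glycine carrier GlyT1, had 12.4 CPM with and 41.6 CPM without A83-01 on stiff matrix, 3.35-fold lower (3.00 to 3.74). On soft matrix it had 9.46 CPM with and 24.8 CPM without, 2.62-fold lower (2.30 to 2.99). The additive log2 difference was −1.57 (SE 0.169), with adjusted p of 0.0928 in edgeR's quasi-likelihood test and 6.46e-06 in DESeq2. In GRCr8 this gene overlaps Ccdc24. Slc38a4 was 2.74-fold lower (2.22 to 3.39) with A83-01 on stiff and 3.66-fold lower (3.12 to 4.30) on soft matrix, with an additive log2 difference of −1.67 (SE 0.203). Its adjusted p was 0.108 in edgeR's quasi-likelihood test and 0.000236 in DESeq2.

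Slc7a7, the light chain y+LAT1 that exports cationic amino acids, had 6.82 CPM with and 16.4 CPM without A83-01 on stiff matrix, and 6.75 CPM with and 15.3 CPM without it on soft matrix. The ratios were 2.40-fold lower (2.05 to 2.82) and 2.27-fold lower (1.94 to 2.66). Slc7a2, the cationic amino acid carrier CAT2, was 1.82-fold lower (1.64 to 2.03) and 1.90-fold lower (1.69 to 2.14) with A83-01 on stiff and on soft matrix. For both genes the libraries with A83-01 lay below those without, and stiffness ratios stayed within 1.24-fold. Adjusted p in edgeR's quasi-likelihood test was 0.111 for Slc7a7 and 0.145 for Slc7a2.

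Other amino acid carriers were lower with A83-01 on stiff matrix and differed less on soft matrix. Slc1a4 had 67.1 CPM with and 139 CPM without it on stiff matrix, 2.07-fold lower (1.97 to 2.18), and was 1.12-fold lower (1.06 to 1.20) on soft matrix. Slc7a1, the arginine carrier CAT1, had 29.9 CPM with and 71.6 CPM without A83-01 on stiff matrix, 2.39-fold lower (2.22 to 2.58), and was 1.26-fold lower (1.18 to 1.35) on soft matrix. Slc1a5 was 1.63-fold lower (1.57 to 1.70) and 1.05-fold lower (1.02 to 1.09). Slc1a3 was 3.84-fold lower (2.92 to 5.10) on stiff and 1.46-fold lower (1.29 to 1.66) on soft matrix. Slc7a8, the exchanger LAT2, was the SLC7 gene that stood higher: 10.5 CPM with and 4.44 CPM without A83-01 on stiff matrix, 2.38-fold higher (1.94 to 2.93), and 1.56-fold higher (1.34 to 1.82) on soft matrix. Of the 6 SLC7 genes tested, 3 were at least 2-fold lower and 1 higher on stiff matrix, and 1 lower and 0 higher on soft matrix, at median log2 ratios of −1.06 on stiff and −0.63 on soft. Over all genes, 4.47% were lower and 7.80% higher on stiff matrix, and 2.44% and 2.18% on soft matrix.

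The promoters of the 3 amino acid carriers Slc7a5, Slc1a4 and Slc7a1 are shown as those with the highest mean FPKM among 7 amino acid carriers that were at least 2-fold lower with A83-01 on stiff matrix; the marks are those given above.
Slc7a5 (GRCr8, chr19:66872363-66872662, minus strand): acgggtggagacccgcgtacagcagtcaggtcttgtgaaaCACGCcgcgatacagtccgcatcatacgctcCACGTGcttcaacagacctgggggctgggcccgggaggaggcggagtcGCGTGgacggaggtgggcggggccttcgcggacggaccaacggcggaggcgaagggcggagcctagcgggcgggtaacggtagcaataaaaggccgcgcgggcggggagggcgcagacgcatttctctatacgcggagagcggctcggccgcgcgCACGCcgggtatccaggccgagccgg
Slc1a4 (GRCr8, chr14:98761513-98761812, minus strand): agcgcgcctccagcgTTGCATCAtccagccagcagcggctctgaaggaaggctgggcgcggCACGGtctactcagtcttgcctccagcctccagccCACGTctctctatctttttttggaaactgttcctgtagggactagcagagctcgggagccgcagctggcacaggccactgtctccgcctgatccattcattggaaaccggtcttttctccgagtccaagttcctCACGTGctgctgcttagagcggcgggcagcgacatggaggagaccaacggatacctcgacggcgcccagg
Slc7a1 (GRCr8, chr12:11664238-11664537, plus strand): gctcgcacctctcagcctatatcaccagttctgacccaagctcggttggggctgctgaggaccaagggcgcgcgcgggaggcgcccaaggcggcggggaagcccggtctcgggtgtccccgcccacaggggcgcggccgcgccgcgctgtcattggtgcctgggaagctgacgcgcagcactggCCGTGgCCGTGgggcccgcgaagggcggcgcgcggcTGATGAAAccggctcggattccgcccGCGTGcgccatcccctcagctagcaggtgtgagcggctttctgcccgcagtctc
TGATGNAA is present in the Slc1a4 and Slc7a1 windows and absent from this window of Slc7a5, where an E-box and NCGTG cores are marked. The windows of the other 4, Slc7a7, Slc6a9, Slc38a4 and Slc1a3, do not hold it, so that 2 of the 7 do. The choice of the 7 depends on the scaling. With total-count scaling Slc1a4 (log2 −0.77), Slc7a1 (−0.97) and Slc7a7 (−0.97) did not reach 2-fold lower on stiff matrix. Both genes whose windows hold TGATGNAA are among those. It was held by 3 of the 52 transporter promoters, the third being that of Slc38a1, and by 3.98% of all promoters. Slc1a4 also has an E-box.

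Of the 9 SLC2 genes tested, 1 was at least 2-fold higher and 2 lower with A83-01 on stiff matrix, and 1 higher and 0 lower on soft matrix. The shares over all genes were 7.80% higher and 4.47% lower on stiff matrix, and 2.18% and 2.44% on soft matrix. Slc2a4, the insulin-responsive glucose carrier GLUT4 of fat and muscle, had 18.7 CPM with and 3.82 CPM without A83-01 on stiff matrix, 4.89-fold higher (3.99 to 6.03). On soft matrix it had 9.07 CPM with and 7.71 CPM without, 1.18-fold higher (0.994 to 1.40), an interval that includes 1. In stiff against soft it was thus 2.06-fold higher (1.79 to 2.36) with and 2.02-fold lower (1.61 to 2.54) without A83-01. The difference between both log2 stiffness ratios was 2.04 (1.78 to 2.30) and was not tested against the spread between libraries. Slc2a12 went the other way, 3.66-fold lower (2.97 to 4.54) with A83-01 on stiff and 1.10-fold lower (0.739 to 1.64) on soft matrix. Slc2a10, the carrier GLUT10 whose loss causes arterial tortuosity in people, was 3.23-fold lower (2.58 to 4.06) and 1.97-fold lower (1.56 to 2.49). Its additive adjusted p was 0.198 in edgeR's quasi-likelihood test, and it overlaps Elmo2 in GRCr8.

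With A83-01 on stiff matrix, 2 of the 8 SLC16 genes stood 2-fold higher or more and 1 stood 2-fold lower (against 7.80% and 4.47% of all genes). On soft matrix 0 did either (against 2.18% and 2.44% of all genes). Slc16a3 was 2.02-fold lower (1.91 to 2.13) with it on stiff and 1.06-fold higher (1.03 to 1.09) on soft matrix, and Slc16a1 was 1.48-fold lower (1.34 to 1.63) and 1.17-fold higher (1.11 to 1.24). Slc16a11, at few counts, was 2.16-fold higher (1.27 to 3.82) on stiff and 2.02-fold higher (1.53 to 2.70) on soft matrix, where its log2 ratio with the prior count lay just under the threshold. Slc16a9 was 2.02-fold higher (1.63 to 2.53) on stiff and 1.06-fold lower (0.828 to 1.37) on soft matrix. The taurine carrier Slc6a6 had 7.86 CPM with and 14.4 CPM without A83-01 on stiff matrix, 1.83-fold lower (1.57 to 2.14), and 20.1 CPM with and 12.2 CPM without on soft matrix, 1.65-fold higher (1.46 to 1.88). The creatine carrier Slc6a8 differed by at most 1.37-fold (1.29 to 1.45) with TMM scaling in any of the 4 pairs.

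**Figure D5:**
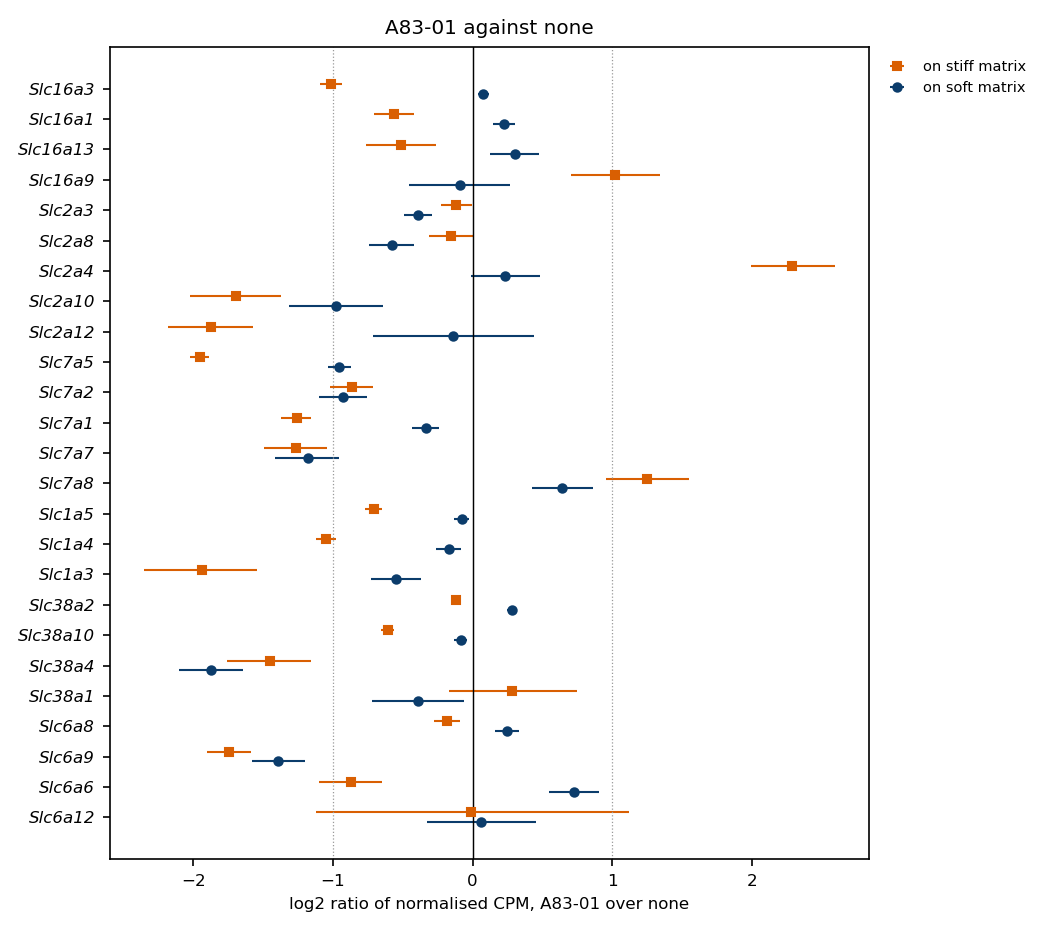
Log2 ratio of normalised CPM, A83-01 over none, for the same 25 transporters on stiff (squares) and on soft matrix (circles), with 95% counting intervals and dotted lines at 2-fold. Slc6a9, Slc38a4 and Slc7a7 lie left of −1 on both matrices, and Slc2a4 stands farthest right on stiff matrix.

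Slc2a1, the main glucose carrier GLUT1, and Slc7a11, the cystine exchanger, were left out of the 75. Slc2a1 had 46.9 CPM in stiff and 182 CPM in soft with A83-01, and 93.0 CPM in stiff and 184 CPM in soft without it.

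Genes around the transporters were grouped in 7 lists. In the list of membrane partners, 5 of 7 genes were tested and 0 were called by edgeR's quasi-likelihood test for either factor, against 2.35% up and 3.29% down for stiffness over all genes. Basigin, Bsg, the partner of MCT1 and MCT4, stood at 919 CPM in stiff and 1289 CPM in soft with A83-01, and at 865 CPM in stiff and 1147 CPM in soft without it. Of 13 genes of glucose entry and first steps, 1 rose and 2 fell with stiffness in that quasi-likelihood test. Txnip, which removes glucose carriers from the surface, rose by 1.06 (SE 0.166), its relative Arrdc3 fell by 1.97 (SE 0.165) and the hexokinase Hk2 fell by 1.58 (SE 0.257). Of 12 genes of lactate and pyruvate handling, Pdk1, a kinase that shuts pyruvate out of mitochondrial oxidation, fell by 0.98 (SE 0.156) and 0 rose. Ldha, a lactate dehydrogenase, did not pass, at 473 CPM in stiff and 929 CPM in soft with A83-01 and 605 CPM in stiff and 838 CPM in soft without it. Of 5 genes of thyroid hormone and creatine handling, the creatine kinase Ckb rose by 2.82 (SE 0.166).

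The amino acid stress response list held 20 genes. With stiffness, the quasi-likelihood test of edgeR called 1 up, Nupr1 (log2 2.11, SE 0.375), and 1 down, Cebpb (−2.81, SE 0.294). For A83-01 it called 0. On stiff matrix 9 of the 20 were at least 2-fold lower with A83-01 and 0 higher (against 4.47% and 7.80% of all genes), at a median of −0.97 on the log2 scale. With total-count scaling 6 were lower and 1 higher (against 392 and 1667 of all 13653 genes), at a median of −0.68. On soft matrix 1 was lower and 0 higher (against 2.44% and 2.18% of all genes), at a median of −0.20. Trib3, a pseudokinase induced by amino acid shortage, had 9.65 CPM with and 104 CPM without A83-01 on stiff matrix, and 10.8 CPM with and 28.8 CPM without it on soft matrix. Asparagine synthetase, Asns, had 58.1 CPM with and 206 CPM without on stiff matrix, and 71.4 CPM with and 128 CPM without on soft matrix. Of 16 genes of amino acid use and synthesis and of 12 of lysosomal nutrient sensing, 0 were called for either factor in edgeR's quasi-likelihood test.

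Markers of cell types were counted with the same test of stiffness, which over all genes called 2.35% up and 3.29% down. Fibroblast markers, 6 of 6 tested, summed to 8592 CPM in stiff and 26158 CPM in soft with A83-01, and to 4147 CPM in stiff and 15174 CPM in soft without it. Of the 6, 2, Dcn and Pdgfra, fell with stiffness in edgeR's quasi-likelihood test. Dcn alone held 5279 CPM in stiff and 21955 CPM in soft with A83-01, and 1442 CPM in stiff and 11520 CPM in soft without it. Pdgfra, Dcn, Lum and Dpt were lower in stiff in both pairs, while Col15a1 and Pi16 were higher in both. Leukocyte and macrophage markers, 7 tested, summed to 86.6 CPM in stiff and 154 CPM in soft with A83-01, and to 52.1 CPM in stiff and 105 CPM in soft without it; 2 of the 7 fell, Adgre1 and Cd74, and Cd74 was at 0 in stiff. Adipocyte markers, 4 tested, summed to at most 25.8 CPM, with 1 down and with Adipoq and Plin1 at 0 in stiff. Pericyte and mural markers had 2 of 8 up, Rgs5 and Des, and of 9 endothelial markers 0 were called. Of 2 skeletal muscle markers tested, Des rose and Acta1 reached at most 8.64 CPM. On stiff matrix the endothelial sum was 2933 CPM with and 1803 CPM without A83-01, and the adipocyte sum 14.9 CPM with and 7.60 CPM without. That adipocyte sum was nearly all 1 gene, Fabp4, at 14.1 CPM with and 7.16 CPM without A83-01. The part of these cell types in the transporter values was not tested.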

How the data were processed

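The 4 groups of 1 library each were taken from the sample titles. The deposited counts are whole reads per gene and library, and the deposited FPKM values scale them by transcript length and library size; the authors made both. Per the submitters' processing notes, HISAT2, edgeR and the build Rnor_6.0 were used; which counter and annotation was not given in the sources used here. Per the labels' protocols, mRNA was taken with oligo(dT) beads and read in pairs; no strand marking and no molecular identifiers are mentioned. The length implied by count over FPKM was constant across libraries within 5% for 93.4% of the 10648 genes whose lowest library had 100 counts or more, and for 37 of the 40 transporters tested.

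TMM factors were computed over the 4 libraries with edgeR 4.0.16 in R 4.3.3 (limma 3.58.1, DESeq2 1.42.0). Genes with at least 1 TMM-scaled CPM in at least 1 library were kept (13634). A gene was called 2-fold apart when its log2 CPM ratio (prior count 2) reached 2-fold and the 95% Clopper-Pearson interval of the counts excluded 1. Folds printed are count ratios without the prior. The additive model had 1 residual degree of freedom and a common dispersion of 0.0351; SEs follow from its F statistics. Nothing says that the libraries came from separate animals, so p-values measure library spread alone, which includes any interaction of stiffness with A83-01. Depth was 33416200 (stiff with A83-01), 33178552 (stiff), 32271844 (soft with A83-01) and 32475473 (soft) counts.

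Named were transporters called by either additive test, those 2-fold apart in a pair with at least 5 CPM in a library, and the 2 with the highest mean FPKM of each family; Slc16a11, Slc16a12, Slc1a1, Slc1a7, Slc2a5, Slc2a6, Slc2a9, Slc2a13, Slc38a7, Slc38a9 and the genes at 0 were named after their values were seen, as were Trib3, Asns, Bsg, Ldha and Slc3a2. Members, lists and tests were chosen with earlier results of these data known. A transporter that this rule names is not reported here. Scripts were tested on simulated data. The 7 lists were membrane partners, amino acid stress response, amino acid use and synthesis, lysosomal nutrient sensing, glucose entry, lactate and pyruvate handling, and thyroid hormone and creatine handling; markers covered endothelial, pericyte and mural, fibroblast, leukocyte and macrophage, adipocyte and skeletal muscle cells. Alternatives were total-count scaling, DESeq2's size factors, no filter, a prior count of 0.5, the deposited FPKM with a pseudocount of 0.1, a 1.5-fold threshold, DESeq2's Wald test, limma-voom, 1 factor alone and leaving out each library.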

Additional observations from a re-analysis of the deposited data

Results flagged for a closer look

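For 13 transporters the counting intervals of both ratios of a contrast excluded 1 in opposite directions. The share of all genes that did so was not counted, so this number says nothing about transporters in particular. At this depth even small shifts pass such an interval. None of these differences was tested against the spread between libraries. The values below are the log2 ratio of stiff over soft with A83-01 minus that without it, which equals the A83-01 ratio on stiff minus that on soft. Slc2a4 was lower in stiff than in soft without A83-01 and higher with it, a difference of 2.04. Slc6a6 was opposite in both contrasts, with a difference of −1.59. Slc16a3 was lower with A83-01 on stiff and slightly higher on soft matrix, a difference of −1.09.

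Smaller opposite pairs were found between the stiffness ratios of Slc7a1 (−0.925), Slc1a5 (−0.630), Slc38a10 (−0.522), Slc38a9 (−0.499) and Slc38a2 (−0.402, in both contrasts). Between the A83-01 ratios they were found for Slc16a13 (−0.811), Slc16a1 (−0.787), Slc16a12 (0.592), Slc6a8 (−0.432) and Slc38a7 (−0.427). With total-count scaling, and likewise with the deposited FPKM, the pairs of Slc1a5, Slc6a8 and, in both contrasts, Slc38a2 had the same sign, and the signs of the other 10 transporters remained opposite. That check covered signs alone, not counting intervals. With total-count scaling, log2 stiff over soft without A83-01 was only 0.0076 for Slc6a6, 0.018 for Slc38a9 and 0.043 for Slc7a1. For Slc38a7, A83-01 on stiff matrix was −0.059. Ratios so near 0 hardly give a direction.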

How the results depend on the processing

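Over all genes, the additive test of stiffness called 320 up and 449 down, and 621 and 1136 with total-count scaling, 574 and 737 with DESeq2, and 13 and 17 with 1 factor only; for transporters, 0 up and 4 down became 3 and 8 with total-count scaling, 2 up with DESeq2 and 0 down with 1 factor only. The additive test of A83-01 called 0 genes up and 6 down, and 563 and 271 with total-count scaling, 10 and 17 without a filter, 219 and 244 with DESeq2, 3 down with limma-voom, and 0 down with DESeq2's size factors or 1 factor only; for transporters, 0 and 0 became 2 and 5 with total-count scaling and 5 down with DESeq2. Transporters 2-fold lower with A83-01 on stiff matrix numbered 10, and 6 with total-count scaling or the deposited FPKM; those higher numbered 4, and 9 without a filter. On soft matrix 1 was higher, and 2 with total-count scaling, no filter or a prior count of 0.5; at 1.5-fold 5 were higher and 3 lower became 7. The stiffness pair counts of transporters moved by at most 1.5 times under the alternatives run, with 6 in place of 4 higher in both pairs without a filter. With total-count scaling the split over all genes was 24.4% higher in place of 38.3% for stiff against soft, and 81.0% in place of 63.6% for A83-01 on stiff matrix. No fitted difference of a called transporter, and no ratio that was 2-fold apart, changed sign under the alternatives run. Small ratios did with total-count scaling: log2 stiff over soft without A83-01 became −0.17 in place of 0.07 for Slc1a5, −0.03 in place of 0.20 for Slc38a2 and −0.14 in place of 0.10 for Slc7a7, and A83-01 on stiff matrix became 0.17 in place of −0.12 for Slc2a3, 0.13 in place of −0.15 for Slc2a8, 0.16 in place of −0.12 for Slc38a2, 0.10 in place of −0.18 for Slc6a8 and 0.24 in place of −0.01 for Slc6a12. Those 8 ratios changed sign with the deposited FPKM too, as did Slc2a3 in stiff over soft with A83-01 (0.02 in place of −0.04), and with DESeq2's size factors Slc16a9 and Slc6a8 in stiff over soft without A83-01, both within 0.02 of 0. Leaving out 1 library leaves no residual degree of freedom and gives values without a test: over the 4 libraries left out, the stiffness difference ranged from −2.35 to −1.26 for Slc16a3, −2.02 to −1.24 for Slc16a1 and −2.70 to −2.63 for Slc6a12. No paired analysis was possible because each group holds 1 library and the labels give no shared replicate numbers. At counts such as the 14 of Slc6a12 in stiff, depth limits precision.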
